A study of Homo sapiens with 8 samples.

Results

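HOX genes encode homeodomain transcription factors that give cells their place along the body axis, and they lie in clusters named A to D. Within a cluster the paralog number counts from the 3′ end, where number 1 stands, towards the 5′ end, where number 13 stands. In embryos and embryonal carcinoma cells retinoic acid is known to turn on genes at the 3′ end first, and Polycomb proteins are known to hold silent HOX clusters shut. The 38 HOX genes listed for study were matched to the probe sets that the platform annotation gives to 1 gene symbol only. Of these genes 28 had such a probe set, out of 19775 genes measured in this way: 1 of 10 in HOXA (HOXA2), 10 of 10 in HOXB, 9 of 9 in HOXC and 8 of 9 in HOXD. The remaining 9 HOXA genes were named by no probe set of their own and HOXD3 only by 3 probe sets shared between genes, so these 10 genes were not analysed here. A gene with several probe sets is given by its brightest one over all arrays, and 15 of the 28 genes had a single probe set.

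RNA from 4 groups of cells was hybridised to 8 oligonucleotide arrays (Affymetrix U133 Plus 2.0), with 2 arrays a group: trMCF clone 11, trMCF clone 11 after 26 days in 1 μM ATRA (all-trans retinoic acid), trMCF clone 11 after 26 days in 10 μM ATRA, and MCF-10F. MCF-10F is a spontaneously immortalized, normal-like human breast epithelial line that lacks the estrogen and progesterone receptors and HER2. The trMCF cells are MCF-10F cells transformed by estradiol, and clone 11 is a single colony of them, picked with a cloning ring, that formed only spherical masses in collagen, so the 6 arrays of the clone stand for 1 colony. The sources used here leave unsaid if arrays of 1 group stem from different cultures, so p-values measure the spread between arrays, which may be technical. They leave unsaid, too, if the untreated trMCF clone 11 arrays hold cells that received DMSO, the vehicle of ATRA. One label field calls trMCF clone 11 replicate 1 normal while the title names the clone, and the title was followed.

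The values are log2 signals, so a difference of 1 is a 2-fold change, and array medians of the signal were 47.3 to 48.8. The 2 trMCF clone 11 arrays lay farthest apart, with 7.71% of probe sets over 2-fold apart, against 0.126% at 1 μM, 0.211% at 10 μM and 3.48% in MCF-10F. In each group the means of all 10 epithelial markers measured stood at or over a log2 signal of 4. So did those of 7 of 8 immune and 7 of 8 endothelial markers, so this level does not mark a cell type. The endothelial marker below it was CDH5 in trMCF clone 11 and KDR in the other groups. At 10 μM against trMCF clone 11, 2 of the epithelial markers fell, where 3.94% of all genes rose and 3.89% fell. These were KRT14 by 6.66 (limma adjusted p = 0.00836) and ITGA6 by 1.05 (adjusted p = 0.0194). Of 12 fibroblast and mesenchymal markers, 4 fell in trMCF clone 11 against MCF-10F (FN1, POSTN, COL1A2 and DCN), beside 2.64% of all genes. The summed signal of the 12 was 1223 and 1907 in trMCF clone 11, 611 and 666 at 1 μM, 777 and 726 at 10 μM, and 29749 and 21091 in MCF-10F. At 10 μM against trMCF clone 11, COL1A1 of this list fell by 2.11 (limma adjusted p = 0.0377) and LUM rose by 1.08 (adjusted p = 0.0264). Summed immune markers were 478 and 348 in trMCF clone 11, 777 and 699 at 1 μM, 872 and 939 at 10 μM, and 304 and 651 in MCF-10F. Among them LYZ rose at 10 μM by 1.04 (adjusted p = 0.0204), CD14 differed from trMCF clone 11 by 1.91 at 1 μM (adjusted p = 0.335) and 2.27 at 10 μM (adjusted p = 0.171), and the leukocyte marker PTPRC stayed between 3.31 and 3.85 on the log2 scale. Summed endothelial markers were 381 and 479 in trMCF clone 11, 799 and 987 at 1 μM, 1049 and 1416 at 10 μM, and 308 and 1280 in MCF-10F. PECAM1 was the brightest of them in every array, with log2 signals of 7.05 and 8.06, 9.22 and 9.58, 9.68 and 10.21, and 6.73 and 10.05 in the same order. It differed from trMCF clone 11 by 1.85 at 1 μM (limma adjusted p = 0.405) and 2.39 at 10 μM (adjusted p = 0.206), while KDR differed by -0.74 and -0.67. No endothelial marker was called in any comparison. Adipocyte sums were 187 to 302. The part of these markers in the HOX differences was not tested.

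A group mean at or over a log2 signal of 4 was found for 26 of the 28 HOX genes and for 87% of all genes, and passing this level does not show that the RNA was present. HOXD8 and HOXD12 stayed below it in all 4 groups and were taken as near background. HOXB6 rose at both ATRA doses, and 3 further genes (HOXA2, HOXC6 and HOXC9) had higher signals in all 4 ATRA arrays than in trMCF clone 11 without being called. An antisense RNA of the HOXB cluster, HOXB-AS1, fell at 10 μM. Changes were called at a Benjamini-Hochberg adjusted p under 0.05 from limma over all 54613 probe sets.

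The promoters of HOXA2 and HOXB-AS1 are shown because HOXA2 had the largest HOX difference under ATRA and HOXB-AS1 was the noncoding HOX cluster RNA that fell. They run from 250 bases before to 50 bases after the RefSeq start site, 5′ to 3′ on the strand of the gene, at chr7:27102634-27102933 (minus strand) and chr17:48544101-48544400 (plus strand) of GRCh38.p14. Capitals mark matches to TGATTNAT, a motif bound by HOX and PBX proteins together, or to GGTTCA, a half-site of retinoic acid receptors, each read on either strand.
HOXA2: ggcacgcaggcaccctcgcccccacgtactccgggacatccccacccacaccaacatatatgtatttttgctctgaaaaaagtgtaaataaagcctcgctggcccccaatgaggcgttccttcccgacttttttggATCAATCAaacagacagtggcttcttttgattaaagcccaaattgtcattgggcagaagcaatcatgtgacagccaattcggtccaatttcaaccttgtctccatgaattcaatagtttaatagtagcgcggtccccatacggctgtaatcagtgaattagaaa
HOXB-AS1: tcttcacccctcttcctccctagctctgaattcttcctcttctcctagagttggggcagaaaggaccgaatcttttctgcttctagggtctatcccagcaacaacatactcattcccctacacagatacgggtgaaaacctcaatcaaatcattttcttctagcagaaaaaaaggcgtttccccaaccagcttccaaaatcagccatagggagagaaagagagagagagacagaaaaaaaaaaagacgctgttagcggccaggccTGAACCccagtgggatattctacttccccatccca
RefSeq promoters were matched for 11 of the 28 HOX genes, namely HOXA2, HOXB1, HOXC4, HOXC5 and the HOXD genes HOXD1, HOXD4, HOXD8, HOXD10, HOXD11, HOXD12 and HOXD13. TGATTNAT stood in 2 of the 11, those of HOXA2 and HOXD11, and in 2.82% of all 35116 promoters. Retinoic acid receptor half-sites (AGGTCA and GGGTCA and AGTTCA and GGTTCA, each on both strands) stood in 6 of the 11 and in 38.6% of all promoters, and HOXC4 and HOXC5 share 1 window. Of 15 promoters of noncoding RNAs from the HOX clusters, 4 held a half-site. GGTTCA, marked in HOXB-AS1, stood in 2 of these 15 and in 8.62% of all promoters. Pairs of half-sites in the same direction, spaced by 2 or by 5 bases, stood in 0 of the 11 and in 0.0399% and 0.0883% of all promoters. A match is a description of the letters and not a site shown to be bound.

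HOXB6, a gene of the middle of the HOXB cluster, was upregulated at both ATRA doses and was the only one of the 28 called in any comparison, beside 1.90% of all genes called at 1 μM and 7.83% at 10 μM. Its log2 signal was 5.35 and 5.26 in trMCF clone 11, 7.05 and 7.13 at 1 μM, 6.95 and 6.87 at 10 μM, and 6.52 and 5.79 in MCF-10F. Both arrays of each ATRA group stood above both MCF-10F arrays, which stood above both trMCF clone 11 arrays. In RNA from whole cultures, fewer cells that express a gene and less RNA per cell cannot be told apart. Against trMCF clone 11 the rise was 1.79 ± 0.25 at 1 μM (log2, SE from limma, n = 2 each, 3.45-fold, adjusted p = 0.0431). At 10 μM it was 1.60 ± 0.23 (3.04-fold, adjusted p = 0.0135). Against MCF-10F the untreated clone had a difference of -0.85 (limma adjusted p = 0.139), and the treated cells differences of 0.94 at 1 μM (adjusted p = 0.263) and 0.76 at 10 μM (adjusted p = 0.192), none of which was called.

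The HOXB6 call rests on 1 of 2 probe sets. The brighter one carries a suffix for probes that may match more than 1 transcript. The other, which carries no such suffix, lay near background at 3.71 to 4.02 in all 8 arrays and had differences of -0.10 at 1 μM (limma adjusted p = 0.794) and -0.07 at 10 μM (adjusted p = 0.881). For the mean of both probe sets the difference at 1 μM was 0.84 (adjusted p = 0.0684), and the rise at 10 μM was 0.77 (adjusted p = 0.0333). Without trMCF clone 11 replicate 1, the difference at 1 μM was 1.83 with an adjusted p of 0.0718, and at 10 μM the rise was 1.65 with an adjusted p of 0.0261. Leaving out either array of a dose ended that dose's call, with adjusted p of 0.379 and 0.421 at 1 μM and 0.132 and 0.109 at 10 μM. A signal floor of 16 ended the call at both doses (adjusted p of 0.153 and 0.0676), and a replicate block ended it at 1 μM (adjusted p = 0.0582).

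**Figure D1:**
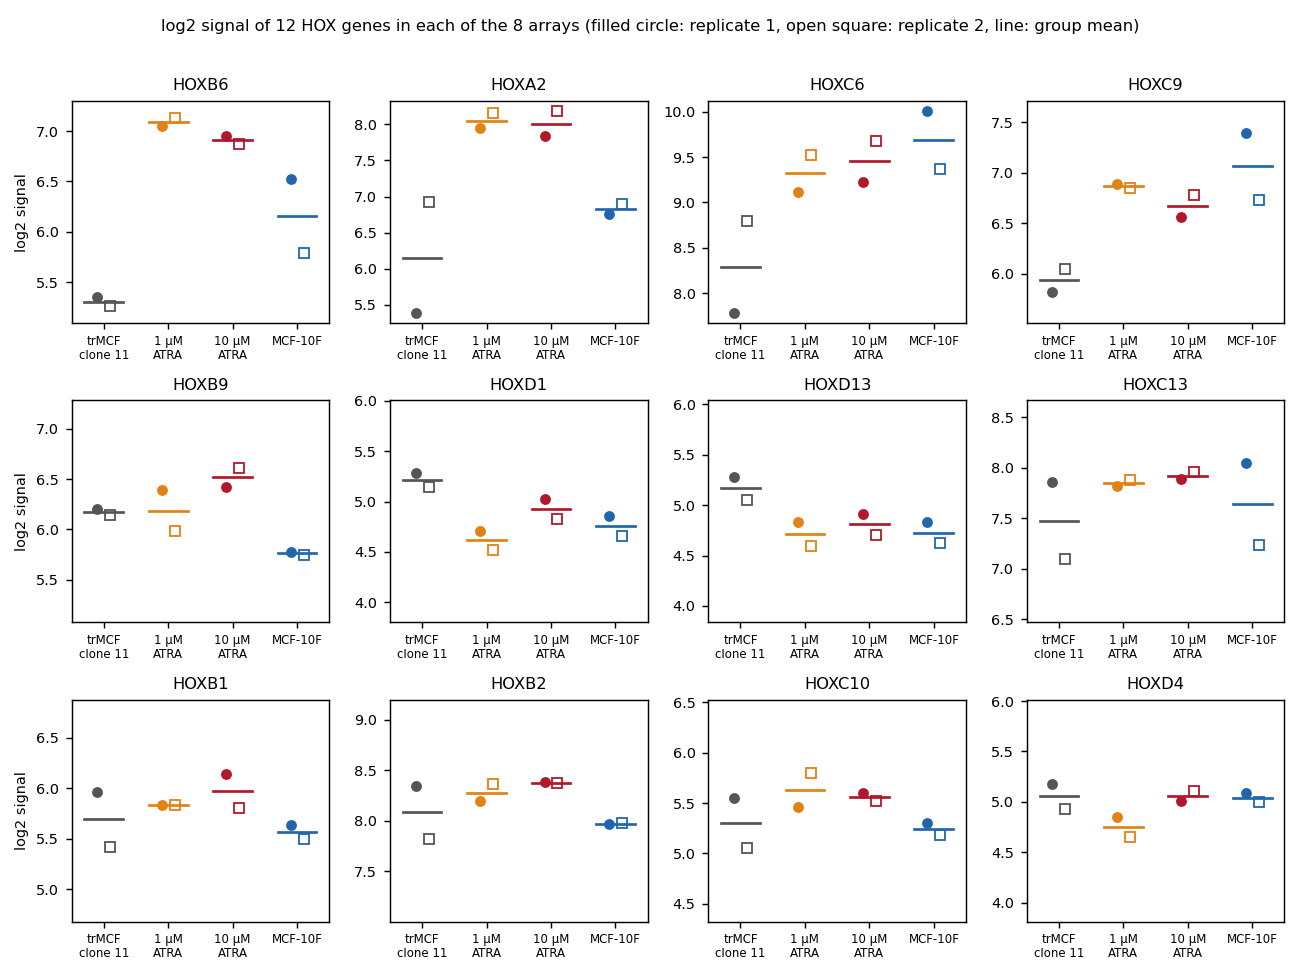
Log2 signal (vertical axes, each panel on its own scale) of 12 HOX genes in the 8 arrays, with trMCF clone 11, 1 μM ATRA, 10 μM ATRA and MCF-10F from left to right; points are arrays and lines are group means of 2 arrays. HOXB6 stood at 5.26 to 5.35 in trMCF clone 11 and at 6.87 to 7.13 in the 4 ATRA arrays, while the 2 trMCF clone 11 arrays of HOXA2 lay at 5.39 and 6.92.

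HOXA2, which patterns the second branchial arch and the hindbrain, had the largest difference under ATRA and did not pass the test. Its log2 signal was 5.39 and 6.92 in trMCF clone 11, 7.95 and 8.15 at 1 μM, 7.84 and 8.18 at 10 μM, and 6.76 and 6.90 in MCF-10F. All 4 ATRA arrays stood above the other 4 arrays, and the 2 trMCF clone 11 arrays lay 1.54 apart with the MCF-10F arrays between them. The differences from trMCF clone 11 were 1.90 ± 0.47 at 1 μM (limma adjusted p = 0.112) and 1.86 ± 0.44 at 10 μM (adjusted p = 0.0548). Without trMCF clone 11 replicate 1 the difference at 1 μM was 1.13 (adjusted p = 0.0608), and at 10 μM it was 1.09 (adjusted p = 0.0303), past the threshold. Without replicate 2 the differences were 2.67 (adjusted p = 0.0054) and 2.62 (adjusted p = 0.000889), both past the threshold. Against MCF-10F the treated cells differed by 1.22 at 1 μM (limma adjusted p = 0.454) and 1.18 at 10 μM (adjusted p = 0.289). With 1 or the other trMCF clone 11 array left out, which leaves these values as they are and changes only the pooled error, the adjusted p became 0.0419 and 0.0144.

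HOXC6 and HOXC9, both from the middle of the HOXC cluster, had lower signals in the untreated clone than in every other group. HOXC6 had log2 signals of 7.78 and 8.79 in trMCF clone 11, 9.12 and 9.53 at 1 μM, 9.22 and 9.68 at 10 μM, and 10.01 and 9.37 in MCF-10F. HOXC9 had 5.82 and 6.04 in trMCF clone 11, 6.89 and 6.85 at 1 μM, 6.56 and 6.78 at 10 μM, and 7.40 and 6.74 in MCF-10F. For both genes the treated arrays overlapped MCF-10F, and no array of another group reached down to the trMCF clone 11 arrays. In trMCF clone 11 against MCF-10F the differences were -1.40 ± 0.39 for HOXC6 (limma adjusted p = 0.121) and -1.13 ± 0.24 for HOXC9 (adjusted p = 0.0685). Against trMCF clone 11, HOXC6 differed by 1.03 at 1 μM (adjusted p = 0.238) and 1.17 at 10 μM (adjusted p = 0.127), and HOXC9 by 0.93 (adjusted p = 0.123) and 0.74 (adjusted p = 0.115). These comparisons share the trMCF clone 11 arrays, so opposite signs in them are not separate observations. HOXC6 has a single probe set, with the suffix for possible matches to several transcripts. With 1 or the other MCF-10F array left out, HOXC9 passed at 10 μM, with the same difference and an adjusted p of 0.0429. Without trMCF clone 11 replicate 2, HOXC6 passed the threshold at both doses, with differences of 1.54 (adjusted p = 0.0421) and 1.67 (adjusted p = 0.0166). Without replicate 1 its differences were 0.53 at 1 μM (adjusted p = 0.475) and 0.66 at 10 μM (adjusted p = 0.314).

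Taking the 4 ATRA arrays as 1 group against trMCF clone 11, a comparison chosen after the values were seen, 4 of 28 HOX genes rose and 0 fell, beside 9.54% and 7.38% of all genes. These were HOXA2 by 1.88 ± 0.35 (limma adjusted p = 0.0105), HOXB6 by 1.69 ± 0.19 (adjusted p = 0.00166), HOXC6 by 1.10 ± 0.30 (adjusted p = 0.0455) and HOXC9 by 0.83 ± 0.19 (adjusted p = 0.0235). In this grouping HOXD13 differed by -0.41 (adjusted p = 0.0937) and HOXD1 by -0.44 (adjusted p = 0.101), the genes at the opposite ends of the HOXD cluster.

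**Figure D2:**
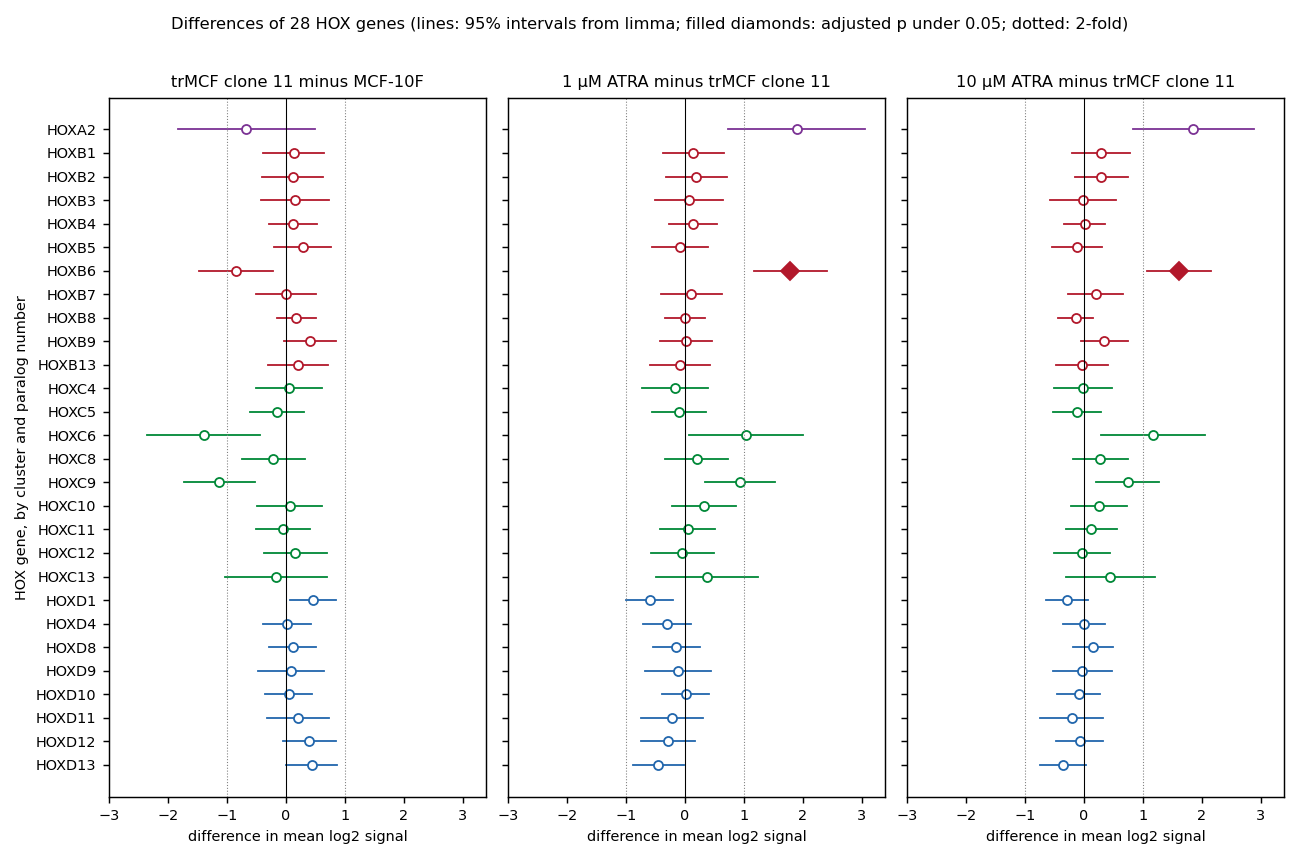
Differences in mean log2 signal (horizontal axes) of the 28 HOX genes, in order of cluster and paralog number, for trMCF clone 11 against MCF-10F, 1 μM ATRA against trMCF clone 11 and 10 μM ATRA against trMCF clone 11; lines are 95% intervals from limma with n = 2 arrays a group, filled diamonds are adjusted p under 0.05 and dotted lines mark 2-fold. HOXB6 has the only filled symbols, at 1.79 and 1.60, and 23 of the 28 intervals in each panel stay inside the dotted lines.

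In trMCF clone 11 against MCF-10F, transformation by estradiol and the picking of 1 colony cannot be told apart. No HOX gene was called, while 4.53% of all 19775 genes were (1.88% higher, 2.64% lower). At an unadjusted p under 0.05, 5 of the 28 passed, against 22.9% of all genes. By the criterion of the study's methods, a fold of 2 with an unadjusted p, 0 HOX genes were higher and 2 lower (HOXC6 and HOXC9), against 3.24% and 5.96% of all genes. The HOX differences had a median of 0.10, against 0.06 over all genes, and ranged between -1.40 and 0.45. Arrays did not overlap for 8 HOX genes that were higher and 3 that were lower in the clone, against 27.5% and 20.8% of all genes. Without trMCF clone 11 replicate 1 the median over the 26 genes above background was -0.10, where it was 0.07 with all arrays. Without the same array HOXA2 had a difference of 0.09 (limma adjusted p = 0.851), of the opposite sign to that with all arrays (-0.67, adjusted p = 0.506), and HOXC6 one of -0.89 (adjusted p = 0.229). Without trMCF clone 11 replicate 2, HOXA2 (-1.44, limma adjusted p = 0.0101) and HOXC6 (-1.90, adjusted p = 0.0222) passed the threshold. Without MCF-10F replicate 2 it was HOXB6 (-1.21, adjusted p = 0.0491) and HOXC9 (-1.46, adjusted p = 0.0403).

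At 1 μM ATRA against trMCF clone 11, 1 of 28 HOX genes rose and 0 fell, beside 0.971% and 0.925% of all genes. At 10 μM it was also 1 and 0, beside 3.94% and 3.89%. At an unadjusted p, 6 and 4 of the 28 passed at 1 μM and 10 μM, against 21.6% and 24.0% of all genes. With a fold of 2 and an unadjusted p the HOX counts were 3 higher and 0 lower at each dose (HOXA2, HOXB6 and HOXC6), against 4.87% higher and 3.02% lower of all genes at 1 μM and 4.66% and 3.67% at 10 μM. The median HOX difference was 0.01 at both doses, against -0.06 at 1 μM and -0.01 at 10 μM over all genes. Arrays did not overlap for 5 HOX genes higher and 4 lower at 1 μM, against 24.1% and 30.3% of all genes, and for 9 higher and 3 lower at 10 μM, against 24.6% and 24.1%.

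The treated cells were also set against MCF-10F, and no HOX gene was called at either dose. Of all genes 0.612% were called at 1 μM (0.142% higher, 0.470% lower) and 2.56% at 10 μM (0.759% higher, 1.81% lower). At an unadjusted p, 2 and 3 HOX genes passed, against 12.5% and 16.5% of all genes. HOXB9, whose mouse counterpart acts in the mammary gland together with its paralogs, came closest: its log2 signal was 6.21 and 6.14 in trMCF clone 11, 6.39 and 5.98 at 1 μM, 6.42 and 6.61 at 10 μM, and 5.78 and 5.75 in MCF-10F. The MCF-10F arrays were the lowest, and at 10 μM the difference from them was 0.75 ± 0.17 (limma adjusted p = 0.0913). The other HOXB9 probe set had 6.10 and 6.32 at 10 μM and 6.02 and 5.83 in MCF-10F. Its MCF-10F arrays overlapped those of trMCF clone 11, at 6.00 and 5.99. Arrays did not overlap for 10 HOX genes higher and 3 lower at 1 μM, against 26.1% and 24.2% of all genes, and for 11 higher and 1 lower at 10 μM, against 29.6% and 21.0%. With a fold of 2 and an unadjusted p, HOXA2 alone was higher at each dose and none was lower, beside 1.15% higher and 2.57% lower of all genes at 1 μM and 1.18% and 3.32% at 10 μM. Without MCF-10F replicate 1, HOXB6 passed at 10 μM (1.12, limma adjusted p = 0.0321).

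No HOX difference between the doses passed the test. At 10 μM against 1 μM no HOX gene and 0% of all genes were called, and at an unadjusted p 0 HOX genes passed, against 1.69% of all genes. With a fold of 2 and an unadjusted p the HOX counts were 0 and 0, against 0.0253% higher and 0.0759% lower of all genes, and arrays did not overlap for 7 HOX genes higher and 4 lower, against 21.3% and 17.5%. HOX differences between the doses ranged from -0.19 (HOXC9) to 0.33 (HOXB9), and 26 of 28 intervals stayed within 2-fold, the exceptions being HOXA2 (-1.07 to 0.99) and HOXC6 (-0.75 to 1.01). For HOXB6 the difference between doses was -0.18, with an interval of -0.73 to 0.36.

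Among the other HOXB genes no difference passed the test. HOXB1, which specifies facial motor neurons in the hindbrain, had 5.96 and 5.42 in trMCF clone 11, 5.83 and 5.83 at 1 μM, 6.14 and 5.81 at 10 μM, and 5.63 and 5.49 in MCF-10F. HOXB2, its neighbour, had 8.35 and 7.82 in trMCF clone 11, 8.19 and 8.36 at 1 μM, 8.38 and 8.37 at 10 μM, and 7.96 and 7.98 in MCF-10F. For both genes the ATRA arrays stood above MCF-10F and the trMCF clone 11 arrays spanned it, and at 10 μM against MCF-10F the differences were 0.41 (limma adjusted p = 0.473 for HOXB1 and 0.418 for HOXB2). All 10 HOXB genes had a difference above 0 from MCF-10F at both doses, with medians of 0.24 at 1 μM and 0.18 at 10 μM, against 0.0035 and 0.0464 over all genes. Arrays did not overlap for 8 and 7 of the 10, against 26.1% and 29.6% of all genes. The cluster's median in trMCF clone 11 against MCF-10F was 0.14, with 8 of 10 above 0. HOXB3, HOXB4 (a regulator of blood stem cells), HOXB5, HOXB7, HOXB8 and HOXB13 (known from the prostate) moved by 0.20 or less between either dose and trMCF clone 11 and passed no test.

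In HOXC the genes other than HOXC6 and HOXC9 had smaller differences. At each dose 6 of the 9 HOXC genes had a difference above 0 from trMCF clone 11. HOXC4, HOXC5, HOXC8, HOXC11 and HOXC12 stayed between -0.22 and 0.28 in trMCF clone 11 against MCF-10F and at both doses against trMCF clone 11. HOXC13, which acts in hair and nails, had 7.86 and 7.09 in trMCF clone 11, 7.82 and 7.88 at 1 μM, 7.89 and 7.96 at 10 μM, and 8.05 and 7.23 in MCF-10F. HOXC10 had 5.55 and 5.06 in trMCF clone 11, 5.46 and 5.79 at 1 μM, 5.60 and 5.52 at 10 μM, and 5.30 and 5.18 in MCF-10F. For HOXC13 the trMCF clone 11 and MCF-10F arrays each split, 1 near the ATRA arrays and 1 below them, while for HOXC10 the ATRA arrays stood above both MCF-10F arrays and overlapped the clone. From trMCF clone 11, HOXC13 differed by 0.38 at 1 μM and 0.45 at 10 μM, and HOXC10 by 0.32 and 0.26. Neither gene was called. The median of the 9 HOXC differences was -0.15 in trMCF clone 11 against MCF-10F, 0.20 at 1 μM and 0.26 at 10 μM against trMCF clone 11.

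The HOXD genes, whose 5′ members shape the digits, went the other way at 1 μM without passing the test. HOXD1 had log2 signals of 5.28 and 5.15 in trMCF clone 11, 4.71 and 4.52 at 1 μM, 5.02 and 4.83 at 10 μM, and 4.86 and 4.66 in MCF-10F. HOXD13 had 5.28 and 5.05 in trMCF clone 11, 4.83 and 4.59 at 1 μM, 4.91 and 4.71 at 10 μM, and 4.83 and 4.62 in MCF-10F. For both genes the 2 trMCF clone 11 arrays were the highest of the 8. At 1 μM against trMCF clone 11, HOXD1 differed by -0.60 ± 0.16 (limma adjusted p = 0.128) and HOXD13 by -0.45 ± 0.18 (adjusted p = 0.250). The other HOXD1 probe set had 3.33 and 2.99 in trMCF clone 11 and 3.08 and 3.12 at 1 μM. Further HOXD13 probe sets had 3.27 and 3.27 in trMCF clone 11 against 3.20 and 3.41 at 1 μM, and 5.01 and 4.81 against 4.96 and 4.45.

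HOXD4 had 5.18 and 4.93 in trMCF clone 11, 4.85 and 4.65 at 1 μM, 5.01 and 5.11 at 10 μM, and 5.08 and 5.00 in MCF-10F. In this probe set only the 1 μM arrays stood apart (-0.31, limma adjusted p = 0.392). The other HOXD4 probe set had 4.16 and 3.96 in trMCF clone 11 and 3.75 and 3.82 at 1 μM. There the 10 μM arrays had 4.01 and 4.28, and the MCF-10F arrays were the lowest at 3.61 and 3.65. In all, 7 of the 8 HOXD genes had a difference under 0 at 1 μM, with a median of -0.25 against -0.06 over all genes, and 4 had arrays that did not overlap, against 30.3% of all genes. At 10 μM it was 6 of 8 with a median of -0.09. In trMCF clone 11 against MCF-10F all 8 were above 0, with a median of 0.15. As the same trMCF clone 11 arrays enter each of these comparisons, their opposite signs are not separate observations. HOXD9, HOXD10 and HOXD11 stayed between -0.21 and 0.20 in these comparisons, and the dim genes HOXD8 and HOXD12 are included in the counts.

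**Figure D3:**
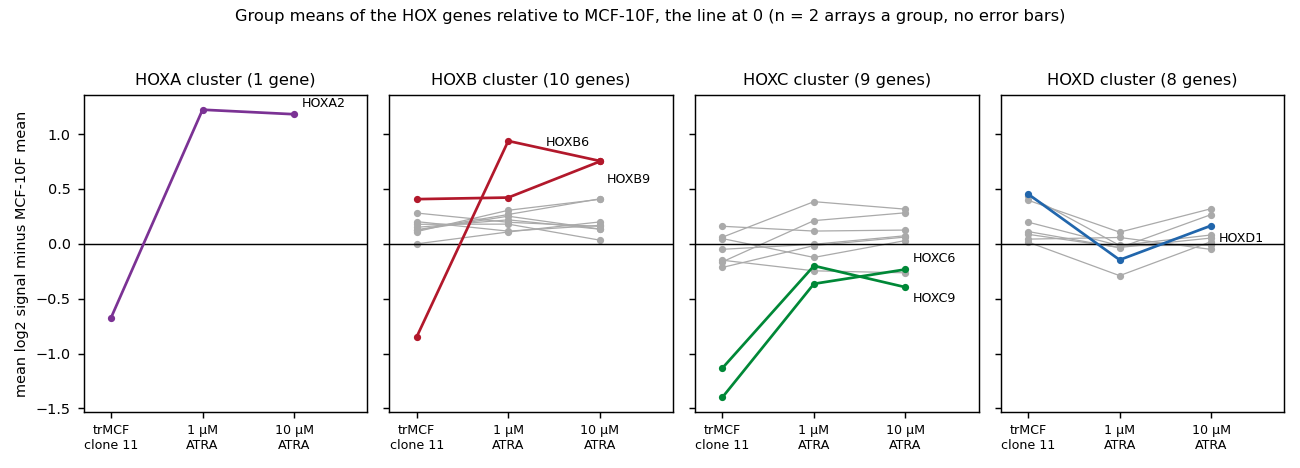
Mean log2 signal of each HOX gene minus its MCF-10F mean (vertical axis, common to the panels) in trMCF clone 11, 1 μM ATRA and 10 μM ATRA, by cluster; each line is 1 gene, the line at 0 is MCF-10F, and coloured lines are the 6 genes named. HOXB6 goes with -0.85, 0.94 and 0.76 over the 3 groups and HOXC9 with -1.13, -0.20 and -0.40, while the grey lines stay between -0.29 and 0.44.

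Position along the clusters was described by paralog number. The 5 genes of paralogs 1 to 3 had a median difference from trMCF clone 11 of 0.14 at 1 μM and 0.28 at 10 μM, the 11 genes of paralogs 4 to 8 of 0.00 and 0.01, and the 12 genes of paralogs 9 to 13 of -0.01 and -0.03. Over the 28 genes Spearman's rho of the difference with paralog number was -0.15 at 1 μM and -0.21 at 10 μM. Within HOXB it was -0.62 and -0.20 over 10 genes, within HOXC 0.30 and 0.13 over 9, and within HOXD 0.12 and -0.41 over 8. The clusters thus did not share a sign, and these values are descriptions since the genes share arrays. HOXB6, HOXC6 and HOXC9 come from the middle of their clusters and HOXA2 from the 3′ end.

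Of 19 noncoding RNAs listed from the HOX clusters, 11 were measured. Against trMCF clone 11, 0 of them rose and 1 fell at 10 μM, beside 3.94% and 3.89% of all genes, and at 1 μM 0 passed. HOXB-AS1, an antisense RNA that starts inside HOXB2 on the opposite strand, had log2 signals of 6.36 and 6.46 in trMCF clone 11, 5.50 and 5.42 at 1 μM, 5.27 and 5.46 at 10 μM, and 6.46 and 6.16 in MCF-10F. All 4 ATRA arrays lay below all 4 others. At 10 μM it fell by 1.04 against trMCF clone 11 (SE 0.16, limma adjusted p = 0.0152) and by 0.94 against MCF-10F (adjusted p = 0.0351). At 1 μM the differences were -0.95 (adjusted p = 0.0559) and -0.85 (adjusted p = 0.144). HOXB2 passed no test in the same arrays, and the strand that the probe sets of HOXB-AS1 read was not checked. The dimmer probe set of HOXB-AS1 differed by -0.38 at 10 μM (adjusted p = 0.232) and -0.32 at 1 μM (adjusted p = 0.402). With each of the 8 arrays left out in turn, the difference at 10 μM ranged from -1.14 to -0.95 and was called in 4 of 8 cases. HOTAIR, HOTTIP, HOXA-AS2, HOXA-AS3, HOXA11-AS, HOXB-AS3, HOXC-AS3, HOXD-AS2, HAGLR and HAGLROS passed no test against trMCF clone 11, with differences between -0.37 and 0.31 at 10 μM. HOXA-AS3 and HOXA-AS2 came closest of them against MCF-10F at 10 μM, with 0.75 (adjusted p = 0.0772) and 0.65 (adjusted p = 0.0944).

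HOX proteins bind DNA with TALE homeodomain partners of the PBX and MEIS families, and 10 of 12 listed genes of this kind were measured. At 10 μM, 1 rose (MEIS2) and 1 fell (TGIF1), beside 3.94% and 3.89% of all genes, and at 1 μM 0 passed. MEIS2, also a known retinoic acid target, had log2 signals of 7.40 and 8.49 in trMCF clone 11, 9.72 and 10.04 at 1 μM, 9.84 and 10.02 at 10 μM, and 9.52 and 9.43 in MCF-10F. The ATRA arrays stood above MCF-10F, and the trMCF clone 11 arrays below it and farther from each other than those of any other group. It rose by 1.98 ± 0.33 at 10 μM (limma adjusted p = 0.0203), while the 1 μM difference was 1.93 (adjusted p = 0.0643). TGIF1, a repressor of TGF-beta and retinoid responses, fell by 0.96 at 10 μM (SE 0.17, limma adjusted p = 0.0249). PBX4 came next with 0.67 at 10 μM (adjusted p = 0.0528), and the median over the 10 was 0.08.

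Genes known to respond to retinoic acid were read from the same arrays. Of 21 measured genes of that list, which includes MEIS2, 2 rose at 1 μM and 5 at 10 μM, beside 0.971% and 3.94% of all genes. CYP26B1, which clears retinoic acid from cells, had log2 signals of 7.72 and 8.09 in trMCF clone 11, 10.66 and 10.89 at 1 μM, 10.43 and 10.88 at 10 μM, and 8.85 and 8.60 in MCF-10F. It rose by 2.86 ± 0.20 at 1 μM (limma adjusted p = 0.016) and 2.74 ± 0.21 at 10 μM (adjusted p = 0.00261). The receptor gene NR2F1 rose by 2.48 at 1 μM (adjusted p = 0.0393) and 2.91 at 10 μM (adjusted p = 0.00622). The related enzyme CYP26A1 gained 1.28 at 10 μM (adjusted p = 0.0142), with a difference of 0.72 at 1 μM (adjusted p = 0.132). TGM2, a transglutaminase, gained 2.41 at 10 μM (adjusted p = 0.0198). RARB, a retinoic acid receptor often induced by its ligand, had differences of 0.13 at 1 μM (adjusted p = 0.835) and 0.22 at 10 μM (adjusted p = 0.713). In trMCF clone 11 against MCF-10F, TGM2 fell by 2.76 (adjusted p = 0.0359).

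**Figure D4:**
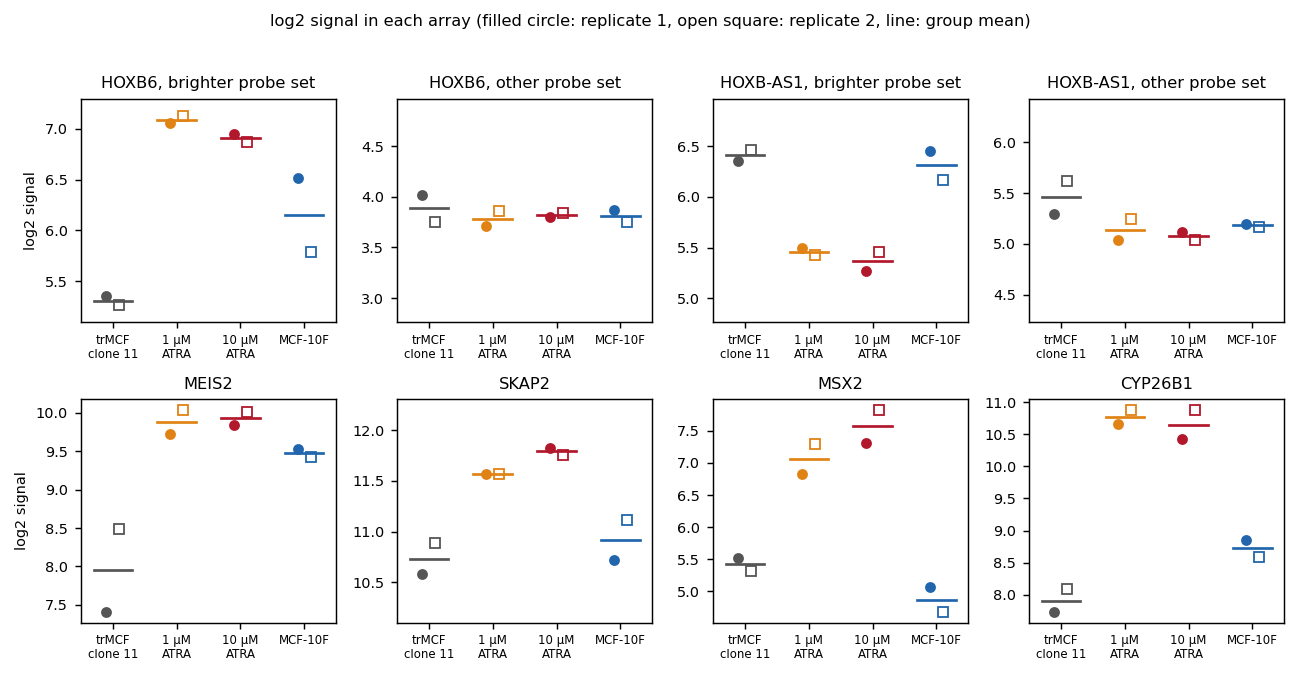
Log2 signal (vertical axes, each panel on its own scale) in the 8 arrays for both probe sets of HOXB6 and of HOXB-AS1 and for MEIS2, SKAP2, MSX2 and CYP26B1, with trMCF clone 11, 1 μM ATRA, 10 μM ATRA and MCF-10F from left to right; points are arrays and lines are means of 2 arrays. The second HOXB6 probe set stays at 3.71 to 4.02, and SKAP2 stands at 11.57 to 11.83 in the ATRA arrays, above 10.58 and 10.89 in trMCF clone 11.

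Of 21 measured genes that flank the HOX clusters, 1 rose at 10 μM, where 3.94% of all genes did. SKAP2, an adaptor protein gene beside the 3′ end of the HOXA cluster, had log2 signals of 10.58 and 10.89 in trMCF clone 11, 11.57 and 11.57 at 1 μM, 11.83 and 11.76 at 10 μM, and 10.72 and 11.12 in MCF-10F. All ATRA arrays stood above the rest, and the rise at 10 μM was 1.06 ± 0.18 (limma adjusted p = 0.0220), with 0.83 at 1 μM (adjusted p = 0.103). Of its 5 other probe sets, 3 rose at 10 μM, by 0.96 (adjusted p = 0.0173), 1.06 (adjusted p = 0.0404) and 1.17 (adjusted p = 0.0108). The median over the flanking genes was -0.10 at 1 μM and -0.0046 at 10 μM. Among 33 measured homeobox genes outside the clusters, MSX2, which acts in ectodermal organs, was the 1 gene that rose at each dose, beside 0.971% and 3.94% of all genes, by 1.64 ± 0.23 at 1 μM (adjusted p = 0.0429) and 2.15 ± 0.25 at 10 μM (adjusted p = 0.00789). Its other probe sets passed no test against trMCF clone 11. With each array left out in turn, MEIS2, TGIF1 and SKAP2 were each called at 10 μM in 4 of 8 cases, MSX2, NR2F1, CYP26A1 and TGM2 in 6 of 8 and CYP26B1 in 8 of 8. At 1 μM MSX2 and NR2F1 were called in 3 of 6 cases and CYP26B1 in 4 of 6.

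Polycomb and Trithorax proteins, which keep HOX genes off and on, were read from lists of their subunits. Of 27 Polycomb subunits, 2 rose (EZH1 by 1.34, limma adjusted p = 0.0366, and PCGF5 by 0.99, adjusted p = 0.0389) and 1 fell (KDM2B by 0.94, adjusted p = 0.0498) in trMCF clone 11 against MCF-10F, where 1.88% of all genes rose and 2.64% fell. At 10 μM against trMCF clone 11, where 3.94% and 3.89% did, 1 rose (KDM2B by 0.75, adjusted p = 0.0395) and 2 fell (EZH1 by 1.30, adjusted p = 0.0268, and PCGF2 by 1.01, adjusted p = 0.0361), and at 1 μM 0 passed. EZH1, a histone methyltransferase, had log2 signals of 9.61 and 9.08 in trMCF clone 11, 8.10 and 8.28 at 1 μM, 7.78 and 8.32 at 10 μM, and 8.01 and 8.01 in MCF-10F. The trMCF clone 11 arrays stood above all others, and both comparisons share them. With each array left out in turn EZH1 was called in 2 of 6 cases for the clone against MCF-10F and in 3 of 8 for 10 μM. PCGF5 and KDM2B were called in 1 of 6 cases for the clone against MCF-10F, and KDM2B and PCGF2 in 3 of 8 at 10 μM. Of 20 Trithorax and MLL complex genes 0 passed in any of these comparisons, with medians of 0.04 in the clone against MCF-10F, 0.21 at 1 μM and 0.25 at 10 μM, and MLLT3 came closest at 10 μM (0.85, adjusted p = 0.0516).

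The precision of these values is set by 2 arrays a group. Half-widths of the 95% intervals of HOX differences ran from 0.34 to 1.16 on the log2 scale in the 6-array fit and from 0.30 to 1.03 in the 8-array fit. For 23 of 28 genes the interval excluded a 2-fold change in trMCF clone 11 against MCF-10F and at each dose against trMCF clone 11. The 16 further probe sets of 13 HOX genes passed no test in any comparison, and 10 and 9 of them had the sign of the brightest probe set at 1 μM and 10 μM.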

How the data were processed

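RNA of 4 groups of cells was measured on 8 arrays, 2 a group. The deposited values are linear signal intensities per probe set. The authors' methods name MAS with global scaling and then Iterative Plier in GeneSpring, and the step at which the deposited intensities were taken was not given in the sources used here. They were turned to log2 and not scaled again. The table has 54675 probe sets, of which 54613 were tested after removal of 62 controls. The platform annotation, which can be old, names 1 gene for 41091, several for 1801 and none for 11721, and a gene is given by its brightest probe set over all arrays. Differences were tested with limma 3.58.1 (R 4.3.3, lmFit and eBayes). MCF-10F, trMCF clone 11 and 1 μM ATRA were fitted on 6 arrays and comparisons with 10 μM on all 8, with Benjamini-Hochberg adjustment over all probe sets. Called means an adjusted p under 0.05, and near background means every group mean under a log2 signal of 4. No depth applies to arrays, and 2 arrays a group limit the precision. The fit was run on simulated data with independent noise and the same spread in every group. Spread differed between the real groups, so that run does not test the calls made here. Values in every array are given for HOX genes called in any comparison and then for those above background with the largest difference between groups whose arrays did not overlap, up to 12 genes, and up to 3 genes of each other list are named by the smallest p. Members and lists were chosen with earlier results of these data known. Alternatives were a signal floor of 16, the dimmest 33% left out, quantile normalization, a trend and robust prior, other sets of arrays, a replicate block, other choices of probe set, the study's 2-fold criterion and each array left out. Promoters are from RefSeq (GRCh38.p14). Python 3.11.15, pandas 2.3.3 and matplotlib 3.10.9 were used.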

Additional observations from a re-analysis of the deposited data

How the results depend on the processing

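The main limit is 2 arrays a group, and the untreated clone's arrays lie farthest apart. Of 72 differences of named HOX genes, 15 changed their call under at least 1 alternative, and 1079 of 1116 recomputed values stayed on the same side of the threshold. Differences that were not called could change sign among these 1079. For HOXA2 in trMCF clone 11 against MCF-10F it was -0.67, and 0.09 without trMCF clone 11 replicate 1. With HOXB6 read from the probe set without suffix, its difference turned to -0.10 at 1 μM (limma adjusted p = 0.794) and -0.0659 at 10 μM (adjusted p = 0.881), and no HOX gene was called. At 1 μM against trMCF clone 11, where 1 HOX gene was called higher, the count was 0 with a signal floor of 16 (HOXB6 adjusted p = 0.153), with a replicate block (0.0582), with the mean over probe sets (0.0684) and without suffixed probe sets. It was 3 by the 2-fold criterion with an unadjusted p and 4 with both doses pooled, which was chosen after seeing the data. At 10 μM it was 0 with the floor (HOXB6 adjusted p = 0.0676) and without suffixed probe sets, 3 by the 2-fold criterion, and 2 without the dimmest probe sets, with a trend and robust prior, with a replicate block or with the mean over probe sets, HOXA2 being the gene gained (adjusted p of 0.0455, 0.0491, 0.0365 and 0.0441). In trMCF clone 11 against MCF-10F the count of lower genes was 0, and 1 with all 8 arrays in the fit or the mean over probe sets (HOXC9, adjusted p of 0.0287 and 0.0488) and 2 by the 2-fold criterion. Against MCF-10F the count of higher genes was 0 at both doses, 1 by the 2-fold criterion at each, and 1 at 1 μM in a fit of only the 4 arrays compared (HOXA2, adjusted p = 0.0419). The cause of these shifts was not tested.

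With each array left out in turn, counts of higher genes ranged over 0 to 3 at each dose against trMCF clone 11 and over 0 to 1 at each dose against MCF-10F. Counts of lower genes in trMCF clone 11 against MCF-10F ranged over 0 to 2. The HOX median over genes above background ranged from -0.10 to 0.17 in trMCF clone 11 against MCF-10F, and from 0.0057 to 0.16 at 10 μM against trMCF clone 11. An array left alone in its group is assumed to vary like the other groups. Deviations of same-numbered arrays had correlations from -0.056 to 0.351 between groups, the highest being that of the 2 ATRA doses. With 2 arrays a group these values cannot show if replicate numbers pair arrays. The replicate block changed no other count of HOX genes called.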
